A study of Mus musculus with 6 samples.

Results

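The 9 genes described here are the signal transducers Stat2, Stat3, Stat4, Stat5a, Stat5b and Stat6 and the kinases Jak1, Jak2 and Jak3, taken by gene name from a table of 38483 genes. They carry 48 of its 93480 transcripts, 33 from the STAT genes and 15 from the JAK genes. RNA was sequenced from splenic CD4+CD62L+ mouse T cells cultured for 3 days toward the Th17 state, the helper T cell type that makes IL-17A. The first group, KO, came from IL-17A-/- mice on the B10.RIII background, and the second, WT, from IL-17A+/+ mice on the same background, with 3 libraries each. The medium of both groups held 10 ng/ml of IL-6, 10 ng/ml of IL-23 and 1 ng/ml of TGF-β, and 10 µg/ml each of blocking antibody to IL-4 and to IFN-γ. The labels give the genotype of the mouse and name no Cre or cell type that would limit it. Bulk libraries cannot tell fewer cells of a type from less RNA per cell.

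The cytokine receptors that signal through JAK kinases have no kinase of their own and carry JAKs on their tails. When a cytokine brings receptor chains together, the JAKs phosphorylate each other and the receptor, STAT proteins dock on the new phosphotyrosines, and phosphorylated STAT dimers enter the nucleus and bind DNA. In CD4 T cells the STAT that is engaged largely sets the helper fate: STAT3 below IL-6, IL-21 and IL-23 drives the Th17 program, STAT4 below IL-12 drives Th1 cells, STAT6 below IL-4 drives Th2 cells, and STAT5 below IL-2 favours regulatory T cells and restrains IL-17A. These steps act on proteins by phosphorylation, and transcript levels do not report them.

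Libraries held 47335736 to 49743762 estimated counts. The deleted gene checked the labels: Il17a stood at 1.11, 0 and 0.0202 CPM (counts scaled to a common library size) in KO and at 160.6, 211.1 and 107.8 CPM in WT. Libraries with the same replicate number resembled each other across genotypes, and KO 1 with WT 1 are called pair 1, and so on. Pair 1 was rich in Cd8a, a chain of the CD8 coreceptor, with 425 CPM in KO 1 and 257 CPM in WT 1, against 62.3 and 66.1 CPM in KO 2 and KO 3 and 48.3 and 33.7 CPM in WT 2 and WT 3. KO 1 also had the lowest level of Cd4, at 246 CPM against 380 to 634 CPM elsewhere. KO 1 and KO 2 carried the Y-linked transcript Ddx3y, at 44.5 and 37.99 CPM, with Xist, the RNA of the inactive X chromosome, at 2.58 and 0 CPM. KO 3 and the WT libraries had 567 to 664 CPM of Xist and at most 0.452 CPM of Ddx3y. Pair 3 is the one pair that is alike in these sex-linked transcripts, so its values are given below for the members and for the target and marker lists.

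All 9 genes passed the filter on low counts. Levels of different genes are compared per transcript length as TPM (length-scaled abundance with the same total in every library), computed from the estimated counts and the listed lengths. Stat3 stood above the other 8 genes in all 6 libraries, at 366, 216 and 322 TPM in KO and 224, 194 and 434 TPM in WT. Its nearest neighbour Jak3, the kinase that binds the common γ chain of the IL-2 family receptors, averaged 99.5 TPM over the 6 libraries and reached 155 TPM in the highest. Stat6 (82.8 TPM), Stat5a (67.8 TPM), Stat5b (64.3 TPM), Jak1 (64.3 TPM) and Jak2 (63.3 TPM) followed, and the ranges of these neighbours overlapped. Stat4 averaged 33.8 TPM and Stat2, the STAT that works with IRF9 below the type I interferon receptor, 20.95 TPM. Stat4 exceeded Stat2 in all 6 libraries, although their ranges across libraries overlapped.

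Non-coding transcripts raised some of these sums. In Stat3 and Stat6 these were mainly short, and in Jak3 mainly the retained-intron transcript Jak3-003 of 4049 bases. Over protein-coding transcripts alone Stat3 averaged 155 TPM, Jak3 82.9 TPM and Stat6 47.7 TPM, and Stat6 then stood seventh of 9, below Stat5a, Jak2, Stat5b and Jak1. Stat3 remained above Jak3 in all 6 libraries on that scale. The order of the other neighbours was within the spread of the libraries, and Stat4 and Stat2 had the lowest means. In KO 1 the coding TPM of Stat4, 59.7, was above those of Stat6, Stat5b and Jak2, so the place of Stat4 also lay within the spread of the libraries.

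Stat3 lies on the minus strand of chromosome 11 at 100885098 to 100939540 (GRCm38, as are all coordinates here), beside Stat5b at 100780731 to 100850724 on the minus strand and Stat5a at 100859351 to 100885169 on the plus strand. The Stat3 and Stat5a annotations overlap by 72 bases at their 3′ ends, on opposite strands, and the counts do not state whether strand was used, so reads from that overlap cannot be assigned with certainty. On the Stat3 side only the transcript Stat3-002, with 1.40% of the gene's counts, reaches the overlap. One transcript, Stat3-001, encodes the full-length STAT3α and held 88.5%, 88.8% and 87.8% of the gene's counts in KO and 89.5%, 89.1% and 86.3% in WT. Per length it held 53.5%, 53.3% and 49.2% of the gene's TPM in KO and 55.1%, 56.0% and 47.6% in WT, since short non-coding transcripts weigh more on that scale. The other 13 Stat3 transcripts held up to 4.35% of counts each over all libraries. Stat3-002 skips 50 coding bases at chr11:100889541-100889590, as in STAT3β, which ends without the C-terminal transactivation domain of STAT3α. The 2 sequences below, from the GENCODE M21 transcripts and read 5′ to 3′ along the mRNA, show this junction with 20 shared bases on each side. Capitals mark the bases that Stat3-002 lacks.
Stat3-001: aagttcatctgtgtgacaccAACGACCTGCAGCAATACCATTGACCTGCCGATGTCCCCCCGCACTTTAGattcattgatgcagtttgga
Stat3-002: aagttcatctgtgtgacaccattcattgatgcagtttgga
The coding sequence is 2310 bases in Stat3-001 and 2166 bases in Stat3-002. Whole transcripts are 4516 and 6042 bases long, and their 3′ ends also differ, at 100886810 and 100885098. The shares that follow therefore do not measure the splice choice alone. Of the TPM of this transcript pair, Stat3-002 held 0.999%, 1.08% and 1.34% in KO libraries and 0.962%, 1.35% and 1.3% in WT libraries. The groups overlapped, with a difference of -0.0617 percentage points (exact two-sided permutation test over the 20 splits of 3 against 3, p = 0.9, where the smallest possible p is 0.10). This pair was chosen after its values were seen.

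Stat3 RNA did not separate the genotypes. It stood at 1027, 621 and 877 CPM in KO libraries 1, 2 and 3 and at 677, 674 and 1105 CPM in WT libraries 1, 2 and 3. KO 1 and WT 3 stood out on opposite sides of the comparison, and the groups overlapped. The log2 change was 0.04 ± 0.27 (SE; edgeR's quasi-likelihood test, adjusted p = 1.00), and the pairs went +0.60, -0.12 and -0.33 on the log2 scale. Leaving out single libraries or pairs moved it between -0.25 and 0.30.

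Stat5a and Stat5b, the STATs below IL-2 and IL-7, had lower means in KO. Stat5a had 242, 193 and 260 CPM in KO libraries against 270, 243 and 378 CPM in WT libraries. KO was lower in every pair, though KO 3 lay above WT 2, so the groups overlapped. The log2 change was -0.36 ± 0.21 (SE; edgeR, unadjusted p = 0.135, adjusted p = 1.00), and DESeq2 blocked by replicate number gave -0.35 with an adjusted p of 0.0994. Leaving out single libraries or pairs in edgeR kept Stat5a between -0.48 and -0.16. Stat5b had 261, 304 and 365 CPM in KO libraries and 338, 319 and 491 CPM in WT libraries. It too was lower in KO in every pair with overlapping groups, by -0.37, -0.07 and -0.43 on the log2 scale. Its log2 change was -0.30 ± 0.22 (SE; edgeR, unadjusted p = 0.205), with an adjusted p of 0.226 in DESeq2 with the block, and it stayed between -0.46 and -0.09 in the same way. The transcripts Stat5a-002 and Stat5b-001 share runs of up to 324 identical bases, and their coding sequences are 90.7% identical, so the split of reads between these paralogs is uncertain. Of all 50-base stretches of Stat5a-002, 16.5% occur in Stat5b-001, and 12.1% of those of Stat5b-001 occur in Stat5a-002.

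Within the STAT genes as a pool, Stat5a was the member whose share differed without overlap. Stat5a made up 9.89%, 10.95% and 11.7% of the summed STAT TPM in KO and 13.7%, 13.0% and 13.3% in WT. Every KO share lay below every WT share, a difference of -2.48 percentage points (exact permutation test, two-sided, p = 0.1, the smallest that 3 against 3 allow). That p is the part of the splits that separate fully, and shares of all 9 genes were compared over the STAT and JAK pools. The separation of 1 share among them is therefore no evidence of a difference. Stat5b made up 7.54%, 12.5% and 12.2% in KO and 12.4%, 12.4% and 12.5% in WT, so KO 1 alone stood apart. Stat3 held 45.0% to 56.7% of this pool over the 6 libraries, and the shares of Stat2, Stat3, Stat4, Stat5b and Stat6 overlapped between genotypes, with exact p from 0.3 to 1. Seen as a total, the STAT TPM was 671, 450 and 573 in KO and 498, 418 and 766 in WT.

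**Figure D1:**
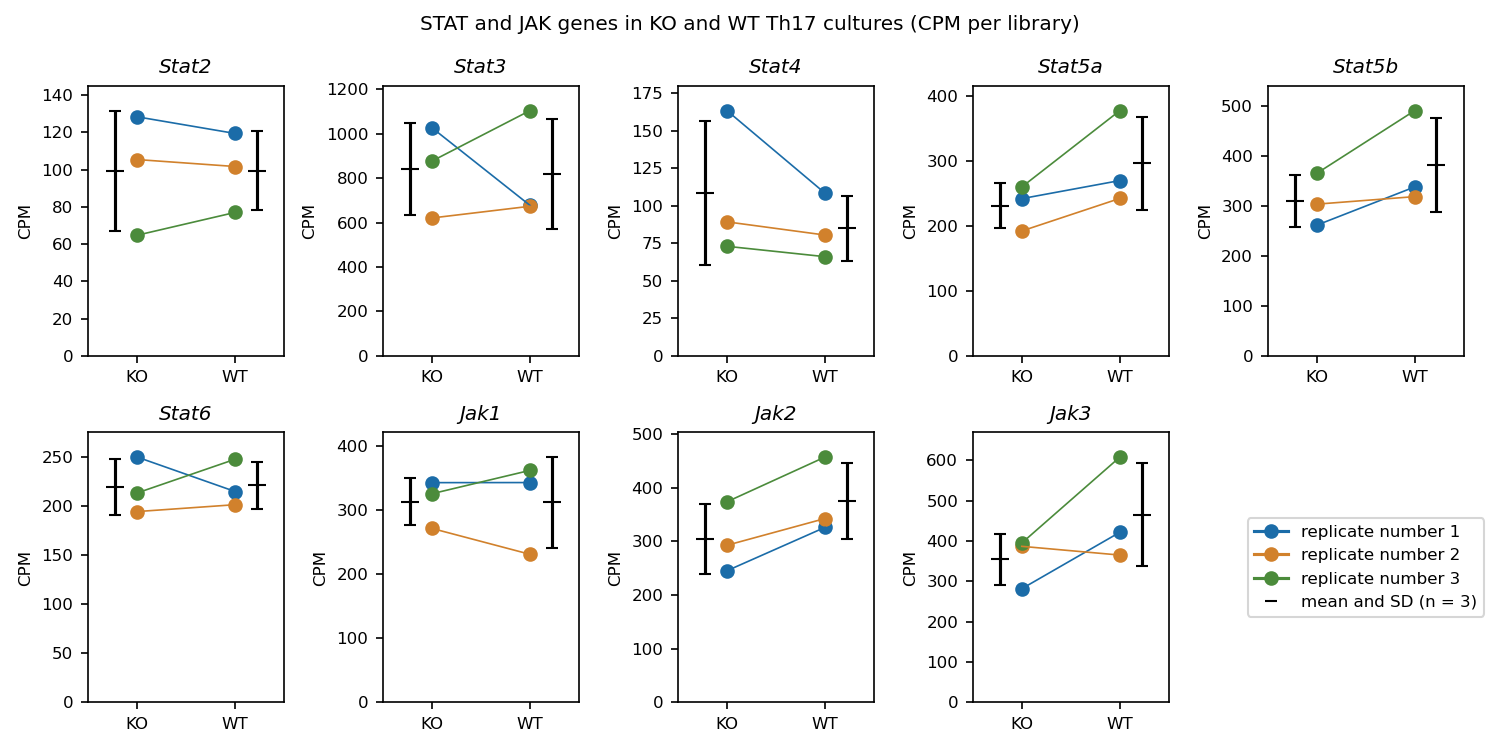
Level of each STAT and JAK gene in CPM, with KO at the left and WT at the right of each panel. Points are libraries, lines join libraries of the same replicate number, and bars give the mean and SD of 3 libraries; Stat5a, Stat5b and Jak2 slope upward toward WT in all 3 pairs and Stat4 slopes downward in all 3, while the points of the groups overlap in every panel.

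**Figure D2:**
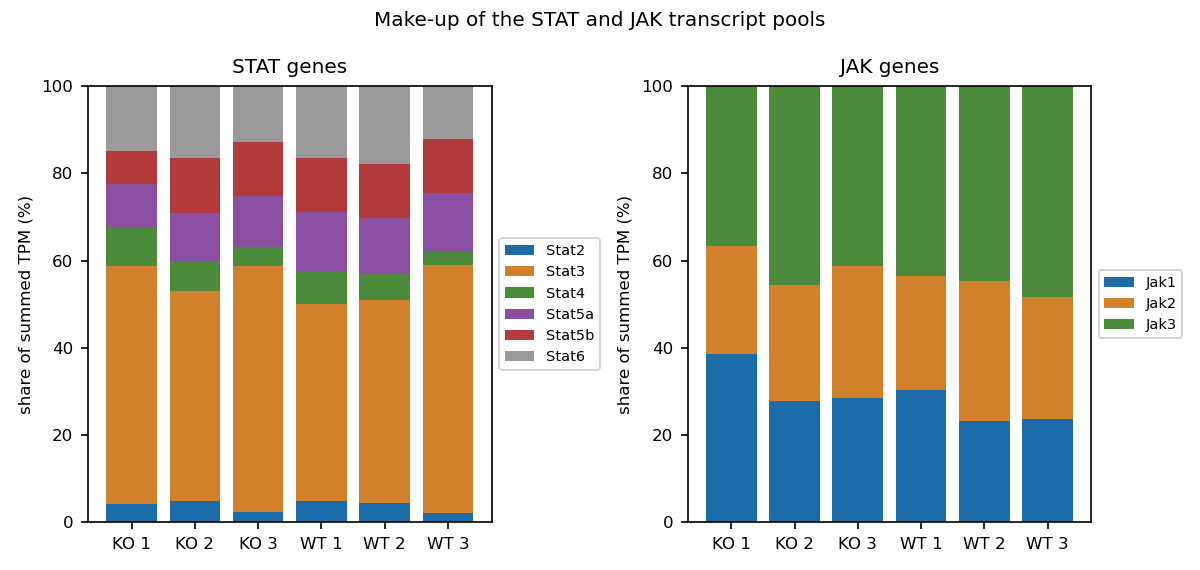
Share of each gene in the summed TPM of the 6 STAT genes (left) and the 3 JAK genes (right), per library, with KO libraries before WT libraries. The Stat5a band spans 9.89% to 11.7% in KO and 13.0% to 13.7% in WT, while the other bands overlap between genotypes. For Stat5a the exact permutation test gave p = 0.1, the smallest that 3 against 3 allow.

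Stat4 had a higher mean in KO. It stood at 163.6, 89.4 and 73.1 CPM in KO libraries and at 108.5, 80.6 and 66.2 CPM in WT libraries. KO was higher in every pair, by 0.59, 0.15 and 0.14 on the log2 scale, and the groups overlapped. Pair 1, the pair rich in Cd8a, held the 2 highest values and the widest gap. The log2 change was 0.35 ± 0.33 (SE; edgeR, unadjusted p = 0.326) and 0.28 with an adjusted p of 0.433 in DESeq2 with the block. Without KO 1 the edgeR value was -0.08. Natural killer and CD8 T cells also use STAT4 below IL-12, and the part of such cells in these values was not tested.

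Stat4 has a pair of annotated starts on chromosome 1, and the upstream one carried most of its RNA. Stat4-202, which begins at the upstream start, held 98.8%, 95.9% and 94.0% of the gene's TPM in KO and 95.5%, 97.2% and 92.0% in WT. The remainder came from Stat4-201, which begins at the downstream start. The 250 bases before each RefSeq start are printed here because the data differ so widely between the starts. Motif matches are in capitals, and the sequences are from RefSeq on GRCm38, plus strand, chr1:51986898-51987147 and chr1:52007990-52008239.
Stat4 upstream start: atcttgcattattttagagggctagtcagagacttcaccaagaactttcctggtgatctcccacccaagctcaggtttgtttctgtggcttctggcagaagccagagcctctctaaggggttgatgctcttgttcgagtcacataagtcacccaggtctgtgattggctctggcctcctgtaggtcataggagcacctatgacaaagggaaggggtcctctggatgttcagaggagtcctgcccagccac
Stat4 downstream start: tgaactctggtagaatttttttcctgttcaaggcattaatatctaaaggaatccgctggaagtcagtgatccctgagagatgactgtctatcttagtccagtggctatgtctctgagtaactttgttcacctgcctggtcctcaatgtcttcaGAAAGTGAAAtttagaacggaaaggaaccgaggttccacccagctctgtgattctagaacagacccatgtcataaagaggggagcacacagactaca
The capitals in the downstream window are a GAAANNGAAA core of the interferon-stimulated response element, which STAT2 and IRF9 bind as part of a complex. That core, on either strand, occurs in 2.97% of 32817 RefSeq promoter windows of 250 bases. The letters TTCNNNGAA, the γ-activated site bound by most STAT dimers, occur in 7.01% of windows, and TTCNNNNGAA, the wider spacing that STAT6 prefers, in 5.85%. Both are palindromic, so either strand gives the same match. Of the 12 windows of the 9 genes, 0 held TTCNNNGAA, 1 held TTCNNNNGAA and 2 held the response element core. These are matches of letters and not measured binding.

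Stat2 held both of the latter motifs. Its 250 bases before the RefSeq start, at chr10:128270248-128270497 on the plus strand, are given with the matches in capitals.
Stat2 upstream: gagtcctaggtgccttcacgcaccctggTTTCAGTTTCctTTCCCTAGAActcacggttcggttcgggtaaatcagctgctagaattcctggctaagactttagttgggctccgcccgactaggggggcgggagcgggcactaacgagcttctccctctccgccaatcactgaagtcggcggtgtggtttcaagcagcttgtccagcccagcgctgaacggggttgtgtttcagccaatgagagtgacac
Stat2 stood at 128.4, 105.4 and 64.8 CPM in KO and 119.4, 101.7 and 77.0 CPM in WT. Values followed the replicate number, high in pair 1 and low in pair 3, and the genotypes overlapped. Its mean was 99.5 ± 32.2 CPM in KO and 99.4 ± 21.3 CPM in WT (SD, n = 3 each; edgeR adjusted p = 1.00). Its transcripts Stat2-201 and Stat2-202 have 2766 and 2769 coding bases, and Stat2-201 held 74.4%, 62.3% and 63.2% of the Stat2 TPM in KO and 71.4%, 69.9% and 69.9% in WT. The transcripts are 4394 and 4397 bases long with the same annotated start and end, so the split of reads between them is uncertain.

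Stat6, the IL-4 and IL-13 transducer, had the narrowest spread of the 9 genes. It had 250, 194 and 213 CPM in KO libraries and 215, 201 and 248 CPM in WT libraries. Those groups overlapped fully, and the log2 change was -0.01 ± 0.15 (SE; edgeR, adjusted p = 1.00). Stat6-001, the main coding form, held 87.0%, 87.5% and 90.4% of the counts in KO and 87.2%, 83.5% and 90.9% in WT. Of the TPM it held 56.0%, 56.9% and 64.1% in KO and 55.7%, 48.9% and 63.2% in WT.

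Jak1 pairs with the gp130, IL-2 family, interferon and IL-10 family receptors. It had 343, 272 and 326 CPM in KO libraries and 343, 231 and 362 CPM in WT libraries, with overlapping groups and a log2 change of 0.01 ± 0.20 (SE; edgeR, adjusted p = 1.00). Jak2 serves the IL-12 and IL-23 receptors among others. It had 245, 293 and 374 CPM in KO libraries and 326, 343 and 457 CPM in WT libraries. KO was lower in every pair, by -0.41, -0.23 and -0.29 on the log2 scale, but the groups overlapped. The log2 change was -0.30 ± 0.21 (SE; edgeR, unadjusted p = 0.194, adjusted p = 1.00), and Jak2 had the lowest adjusted p of the 9 in DESeq2 with the block, 0.0656 at a log2 change of -0.32. Without single libraries or pairs the edgeR value lay between -0.50 and -0.15.

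Jak3 had 282, 387 and 395 CPM in KO libraries and 422, 365 and 608 CPM in WT libraries. Pairs 1 and 3 were lower in KO, by -0.58 and -0.62 on the log2 scale, and pair 2 was at +0.08. The log2 change was -0.39 ± 0.24 (SE; edgeR, unadjusted p = 0.141), and DESeq2 with the block gave an adjusted p of 0.280. Without pair 2 that fit called Jak3 lower, at -0.62 with an adjusted p of 0.000271, from 4 libraries with 1 residual degree of freedom. Of the summed JAK TPM, Jak3 held 36.7%, 45.7% and 41.3% in KO and 43.6%, 44.6% and 48.4% in WT, with overlapping groups (exact permutation test, two-sided, p = 0.3).

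Even Il17a, the deleted gene, did not pass edgeR without the block (adjusted p = 1.00, log2 change -8.70), which limits what a count of 0 in that fit shows. Across the 9 genes, 0 passed edgeR's test at an adjusted p of 0.05, where 0% of the 15121 genes tested passed, and 0 had an unadjusted p under 0.05, against 1.67% of all genes. With the replicate number as a block, edgeR called 0 genes of 15121 and put 2 of the 9, Jak2 and Stat5a, at an unadjusted p under 0.05, against 9.73% of all genes. DESeq2 called 0 of the 9 and 0.086% of all genes without the block, and 0 of the 9 and 2.52% of all genes with it. At an unadjusted p under 0.05 it counted 5 of the 9 (Stat4 upward, Stat5a, Stat5b, Jak2 and Jak3 downward), against 10.6% of all genes. By ranges, 0 of the 9 separated the genotypes without overlap, against 6.14% of all genes, and 4 of the 9 went the same way in all 3 pairs, against 33.2%. Of these 1 was higher in KO, against 16.6% of all genes, and 3 were lower, against 16.7%. In pair 3, where both libraries were alike in sex-linked transcripts, Stat4 was at +0.14, Stat5a at -0.54, Stat5b at -0.43, Jak2 at -0.29 and Jak3 at -0.62 on the log2 scale, with no test.

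The estimated balance between the transcripts of Stat5b followed the replicate number. Stat5b-001 and Stat5b-002 encode the same 2358 coding bases and begin at different first exons, at positions 100850724 and 100822528 of chromosome 11. Stat5b-001 held 65.2%, 77.9% and 43.7% of the Stat5b TPM in KO and 63.7%, 79.6% and 23.6% in WT. Both genotypes had the highest share in pair 2 and the lowest in pair 3, with a difference of 6.62 percentage points between genotypes (exact permutation test, two-sided, p = 0.8). The starts are shown by RefSeq sequence of the minus strand, 107 bases at chr11:100850725-100850831 before the first exon of Stat5b-001 and 250 bases at chr11:100822571-100822820 before the RefSeq start nearest Stat5b-002. None of the 3 motifs occurs in either stretch.
Stat5b-001 upstream: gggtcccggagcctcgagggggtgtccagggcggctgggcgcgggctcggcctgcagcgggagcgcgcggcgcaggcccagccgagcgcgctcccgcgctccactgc
Stat5b-002 upstream: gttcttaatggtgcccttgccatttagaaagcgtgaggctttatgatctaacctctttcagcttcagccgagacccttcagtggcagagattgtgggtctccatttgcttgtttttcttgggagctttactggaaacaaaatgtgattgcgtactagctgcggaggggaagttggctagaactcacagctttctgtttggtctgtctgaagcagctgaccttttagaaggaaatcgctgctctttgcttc
Stat5a RNA came mainly from Stat5a-002, with 65.8%, 74.1% and 74.6% of its TPM in KO and 63.1%, 69.3% and 74.3% in WT.

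Each kinase gene had the same leading transcript in all 6 libraries. Jak2-201 and Jak2-202 have coding sequences of equal length, 3396 bases, and Jak2-201 held 69.1%, 67.3% and 63.1% of the Jak2 TPM in KO and 68.7%, 72.0% and 58.7% in WT. Jak3-005 held 72.6% to 79.0% over the 6 libraries. Jak3-003, a retained-intron transcript with no coding sequence, held 14.8% to 17.1% in KO and 14.6% to 18.6% in WT. Jak1 was nearly a single transcript, with 98.6% to 99.3% of its counts in Jak1-001. Shares of the named transcripts, those with at least 5% of their gene's counts, overlapped between genotypes, with exact p from 0.2 to 1. All transcript shares given here are estimates, since the split of reads between overlapping transcripts of a gene is uncertain.

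**Figure D3:**
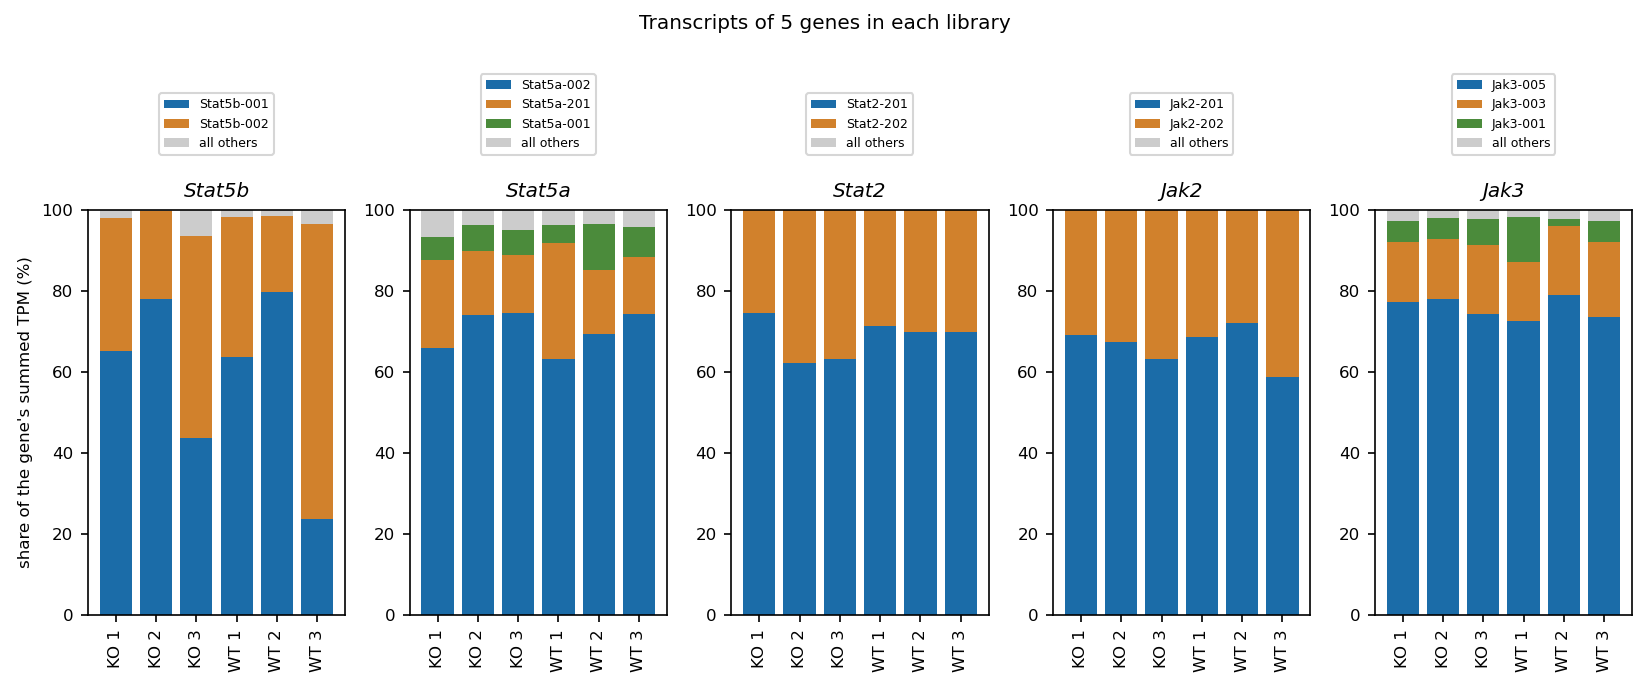
Share of each gene's summed TPM held by its main transcripts, per library, with KO libraries before WT libraries. Stat5b-001 falls to 43.7% in KO 3 and 23.6% in WT 3, while the main transcripts of Stat5a, Stat2, Jak2 and Jak3 stay above 58% in every library.

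Tested as transcripts, 37 of the 48 passed the filter on low counts, and 0 of the 37 passed edgeR at an adjusted p of 0.05, as did 0% of 36508 transcripts. One, the retained-intron Jak3-002, had an unadjusted p under 0.05 and non-overlapping groups, against 1.73% and 6.5% of all transcripts. It was lower in KO and near the floor, at 0.271, 0.0832 and 0.102 CPM in KO and 0.327, 0.503 and 1.08 CPM in WT. It held 0.0955% of the Jak3 counts. With the block 3 of the 37 had an unadjusted p under 0.05, Jak2-201, Jak3-003 and Stat5a-201, against 4.05%.

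The genes whose pattern over the 6 libraries lay nearest to each member were found among 8916 genes with a mean of at least 10 CPM, by the root-mean-square difference of centred log2 values. Jak2 lay nearest to Afg3l2 (0.047), Stat5b to Helz (0.049), Stat6 to Spag9 (0.031) and Jak1 to Chd1 (0.036). Stat2 lay nearest to Asb13 (0.056), Stat4 to Tmem243 (0.067), Jak3 to Ccpg1 (0.083), Stat5a to Rapgef2 (0.092) and Stat3 to Syne3 (0.10). Within the family the closest were Stat5b and Jak2, at 0.073. These distances are descriptions and rest on shared libraries.

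Receptors and regulators of the pathway were read from lists of known members. In edgeR 0 genes of any list passed. DESeq2 with the block, which called 1.02% of all genes higher and 1.5% lower in KO, is used for the counts that follow. The gp130 and IL-2 family receptor chains gave 0 higher and 1 lower of 13, with a median edgeR log2 change of -0.09 against 0.01 for all genes. The one was Il4ra, the IL-4 receptor chain, at 334, 465 and 453 CPM in KO and 507, 619 and 595 CPM in WT, without overlap (log2 change -0.48 ± 0.11, SE; adjusted p = 7.8e-04). It was past the threshold without pair 2 but not without pair 1 or pair 3 (adjusted p = 0.234 and 0.201). Of the IL-12, IL-23, interferon and IL-10 family chains 0 of 10 passed. Their median was 0.04 in edgeR and -0.06 in DESeq2 with the block. Ifnar2, a type I interferon receptor chain, had the lowest edgeR p there (DESeq2 with the block, log2 change -0.33, adjusted p = 0.272).

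Of 20 inhibitors of the pathway, 2 fell and 0 rose, with a median log2 change of -0.06. Both are SOCS family genes that STAT5 induces as its own feedback. Cish had 211, 320 and 259 CPM in KO libraries against 275, 392 and 348 CPM in WT libraries, lower in every pair with overlapping groups (log2 change -0.38 ± 0.10, SE; DESeq2 with the block, adjusted p = 0.0115). Socs2 had 29.0, 58.0 and 66.8 CPM in KO libraries and 44.8, 95.4 and 74.7 CPM in WT libraries (log2 change -0.51 ± 0.16, SE; adjusted p = 0.0442). Neither passed in any fit that left out a pair, at adjusted p of 0.469, 0.0608 and 0.986 for Cish and 0.584, 0.507 and 0.1003 for Socs2 without pairs 1, 2 and 3. Among 18 partners and coactivators 2 fell and 0 rose, with a median of 0.00. Sh2b1, an adaptor that binds activated JAK2, averaged 140 ± 27.3 CPM in KO and 185 ± 40.0 CPM in WT (SD, n = 3 each; DESeq2 with the block, adjusted p = 0.0158). Pim2, a survival kinase induced by STAT5, averaged 212 ± 51.7 CPM in KO and 278 ± 68.0 CPM in WT (SD, n = 3 each; DESeq2 with the block, adjusted p = 0.0159). Pim2 passed again without pair 2 and not without pair 1 or 3, and Sh2b1 passed in none of these smaller fits (adjusted p = 0.293, 0.10 and 1.00).

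Genes known as targets of each STAT were counted by the same test. Of 14 STAT5 targets 4 fell and 0 rose, and the median edgeR log2 change was -0.32, with 12 of 14 lower in KO. The 4 were Cish, Socs2, Foxp3, the regulatory T cell factor (-0.81, adjusted p = 0.0029), and Bcl2, a survival gene that fell by 0.58 on the log2 scale, with 71.7, 131 and 109 CPM in KO libraries and 82.4, 212 and 190 CPM in WT libraries (adjusted p = 0.0106). Foxp3 and Bcl2 passed without pair 1, and not without pair 2 or pair 3. Of 13 STAT6 targets 4 fell and 0 rose, with 10 lower and a median of -0.46 in edgeR (DESeq2 with the block, -0.34). The 4 called lower were Il4ra, Cish, the chemokine receptor gene Ccr4 (-0.45, adjusted p = 0.0179) and Nfil3, a bZIP factor. Nfil3 had 59.5, 83.2 and 133 CPM in KO libraries and 83.1, 168 and 199 CPM in WT libraries (log2 change -0.70, adjusted p = 2.4e-04). Nfil3 remained past the threshold without each pair in turn, and Ccr4 passed in none of those fits (adjusted p = 0.0861, 0.183 and 1.00). Counting any gene of a list, STAT5 targets called lower numbered 3, 1 and 0 without pairs 1, 2 and 3, with 0, 1 and 0 called higher. STAT6 targets called lower numbered 2, 2 and 1, with 1, 0 and 0 called higher. Cish and other genes stand on more than 1 list.

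Of 11 STAT4 targets 2 rose and 0 fell, with a median of 0.16 in edgeR (DESeq2 with the block, 0.05). These were Ifng, the Th1 cytokine, and Tbx21, the Th1 factor T-bet, at 61.7, 15.1 and 9.65 CPM in KO libraries and 35.0, 8.37 and 6.52 CPM in WT libraries (log2 change 0.74, adjusted p = 7.4e-04). Both were highest in pair 1, and the STAT4 targets called higher numbered 0, 1 and 0 without pairs 1, 2 and 3, the 1 being Ifng. Of 20 STAT3 targets 1 rose, Il17f, and 0 fell, with a median of -0.05 in edgeR (DESeq2 with the block, -0.16). Il17f did not pass without pair 1 (adjusted p = 0.892). Counting any STAT3 target, 1, 1 and 1 were called higher and 1, 3 and 0 lower without pairs 1, 2 and 3. Of 16 targets of the complex that holds STAT2, 0 passed. Of these 13 were higher in KO with a median of 0.49, where 7926 of all 15121 genes were higher, and the median within pairs was 0.56, 0.33 and 0.018, so it was near 0 in pair 3. Targets of this complex with means of at least 10 CPM were Irf9, Bst2, Usp18 and Zbp1. Their edgeR log2 changes were -0.01, -0.09, -0.35 and 0.32. Every other target of the complex lay below 10 CPM in both groups and was higher in KO. Within pairs 1, 2 and 3 the median was -0.06, -0.32 and -0.26 for the STAT5 targets and -0.15, -0.41 and -0.39 for the STAT6 targets. It was 0.15, 0.12 and 0.0088 for the STAT4 targets and -0.34, 0.09 and -0.04 for the STAT3 targets. Cmpk2 had the lowest p of the STAT2 complex targets in the edgeR fit, at 0.849 ± 0.715 CPM in KO and 0.231 ± 0.123 CPM in WT (SD, n = 3 each).

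**Figure D4:**
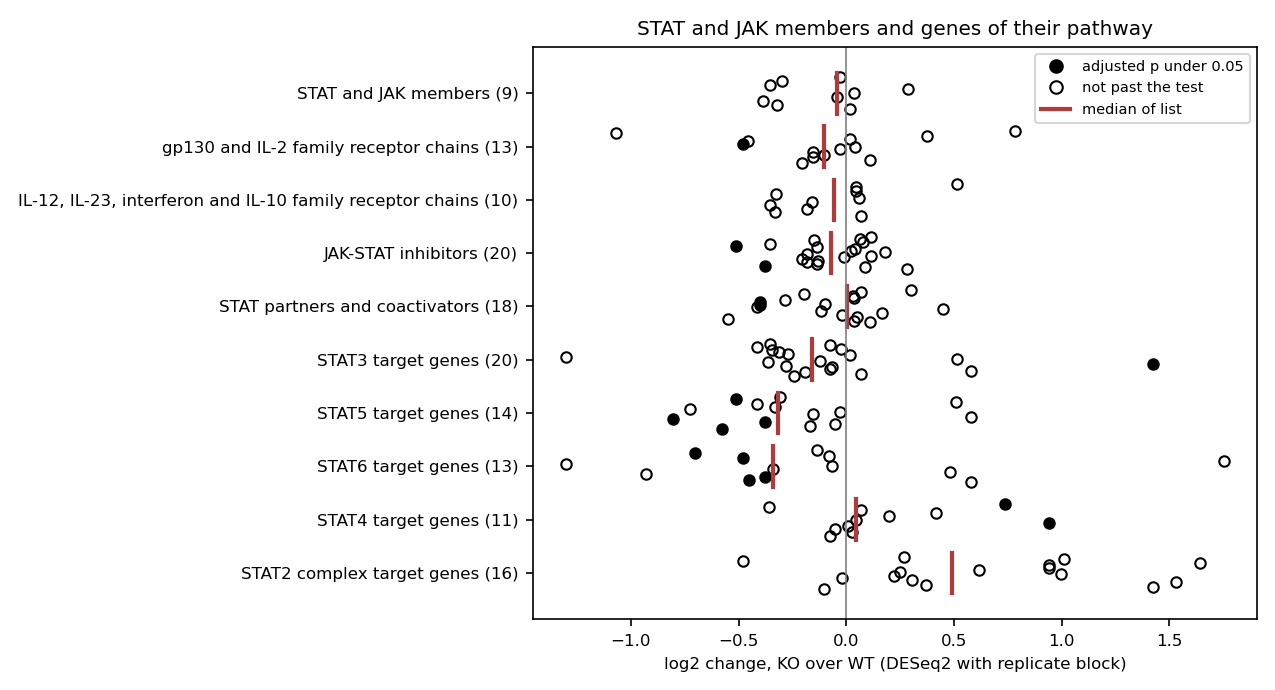
Log2 change of KO over WT, from DESeq2 with the replicate block, for the 9 STAT and JAK genes and for each list of pathway genes, with the number of genes tested in parentheses. Filled points passed an adjusted p of 0.05, open points did not, and red lines are list medians; no STAT or JAK gene is filled, and the filled points of the STAT5 and STAT6 target lists lie left of zero.

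Markers of other cell types differed with genotype and with pair beside these lists. Of 9 B cell genes 4 rose (Ms4a1, Cd22, Blk and Igkc), and the summed level of the 9 was 503 to 1322 CPM in KO and 326 to 720 CPM in WT. Their median log2 difference within pairs was 0.99, 1.33 and 0.058, and 2, 2 and 7 of them were called higher without pairs 1, 2 and 3. Of 9 myeloid genes 4 rose (Itgam, Mpeg1, Clec7a and Ctss), with 125 to 416 CPM in KO and 77.4 to 261 CPM in WT, and 2, 1 and 1 were called higher without pairs 1, 2 and 3. Of 5 NK cell genes 2 rose (Klrd1 and Klrk1), with 160 to 582 CPM in KO and 81.5 to 316 CPM in WT, and 0, 2 and 0 in the smaller fits. Of 6 CD8 T cell genes 2 rose (Cd8a and Klrc1), with 1168 to 1439 CPM in KO and 864 to 1760 CPM in WT, and 1, 2 and 0 in the smaller fits. In pair 1 the CD8 sum was lower in KO, at 1353 CPM in KO 1 and 1760 CPM in WT 1. In pair 3 the median log2 difference was 0.69 for myeloid, 0.61 for NK cell and 0.83 for CD8 T cell genes. No marker of these 4 lists that entered the sums was at 0 in all libraries, and their part in the values of Stat2, Stat4 and the target genes was not tested. Of 8 T cell identity genes 0 passed, with a sum of 3108 to 3735 CPM in KO and 2908 to 3997 CPM in WT, so T cell markers were high in every library, and Zap70 had the lowest edgeR p of them (adjusted p = 1.00). Of 7 Th17 identity genes 2 rose (Il17f and Ccl20), with a sum of 663 to 1420 CPM in KO and 491 to 606 CPM in WT. Much of that sum was Il17f, at 1285, 433 and 1036 CPM in KO and 376, 301 and 260 CPM in WT. The gap between the groups in the sum was mainly that of Il17f. Ccl20 stood at 3.42, 5.85 and 16.1 CPM in KO and 2.22, 2.64 and 5.79 CPM in WT. In pair 3 the median was 0.15 for the Th17 genes and 0.05 for the T cell identity genes.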

How the data were processed

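Per the file headers, the deposited values are one estimated count per transcript and library, listed with transcript length. The submitters' processing notes name Bowtie2 2.1.0, eXpress 1.3.1 and GRCm38, while neither annotation release nor strand setting is given in the sources used here. Estimated counts were summed per gene and rounded, and 0 per-sample columns went unused. CPM were counts over TMM-scaled library sizes, and TPM were computed here from estimated counts and lengths, so short non-coding transcripts weigh heavily in TPM.

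The comparison was edgeR 4.0.16's quasi-likelihood test on 15121 genes and on 36508 transcripts, with TMM scaling, filterByExpr and no block, and called genes below a Benjamini-Hochberg adjusted p of 0.05. Other software was DESeq2 1.42.0, limma 3.58.1 (voom) and R 4.3.3, with scipy 1.17.1, pandas 2.3.3, numpy 2.4.6, matplotlib 3.10.9 and Python 3.11.15. Each fit was tested on simulated counts. All features of a fit shared 1 dispersion (spread beyond counting noise), and pair effects were simulated only for fits with the block. There edgeR without the block called 4.17% of genes changed by 1 on the log2 scale and 56.25% of those changed by 2. DESeq2 with the block called 36.1% and 89.6%, edgeR with the block 42.3% and 98.9%, and limma-voom with the block 27.8% and 97.9%. Unchanged genes made up 18.1% of the calls of DESeq2 without the block and 6.92% with it. Changes as small as those of the members were not simulated. Shares were compared by exact permutation over 20 splits. Alternatives were the replicate block, DESeq2, limma-voom, other scalings, no filter, no transcripts under 300 nt and leaving out libraries or pairs.

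The labels do not say what a replicate number marks. Across genes, deviations from the group means correlated at 0.60, 0.45 and 0.64 for same-number libraries and at -0.17 to -0.47 for the others. Every same-number value exceeded 0.1, so pairs were formed by number. The p-values measure the spread between these libraries.

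The members and lists were chosen with earlier results of these data known. Some genes of these lists are not reported here and were left out of their counts. Named were all 9 members, transcripts with at least 5% of their gene's counts, the genes of each list past the threshold in edgeR or in DESeq2 with the block, or else that with the lowest p, Il17a, and the gene most like each member. Targets of the STAT2 complex with means of at least 10 CPM were named as well. All 48 transcripts were found in GENCODE M21, 46 of them with the same length.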

Additional observations from a re-analysis of the deposited data

How the results depend on the processing

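Called genes numbered 0 with edgeR, limma-voom, upper quartile, RLE scaling, no filter and no short transcripts, with or without the replicate block where it was fitted. DESeq2 called 13 genes, and DESeq2 with the replicate block 381, then 176, 264 and 149 without pairs 1, 2 and 3. Leaving out libraries or pairs gave 0 to 1 called genes in edgeR without the block, the 1 without KO 1, and 8 with the block without pair 1, an alternative added after the data were seen. The cause of these differences was not tested. STAT and JAK genes called numbered 0 in every setting but DESeq2 with the block without pair 2, which called 1, Jak3, and transcripts called numbered 0 throughout. Other scaling moved no median of all genes by over 0.1 on the log2 scale. Log2 changes near 0 changed sign, and so did some larger ones when libraries or pairs were left out, with 0 of them called. Among the larger ones, in edgeR without the block on all libraries, were Stat4 at 0.35 and the transcripts Stat5b-002 at -0.64, Jak3-001 at -0.48 and Jak2-202 at -0.31. In DESeq2 Stat2 was at -0.0093 and Jak1 at -0.0061. In DESeq2 with the replicate block Stat2 was at -0.0413. In DESeq2 with the replicate block without pair 1 Stat2 was at -0.0928 and Stat3 at -0.22. In DESeq2 with the replicate block without pair 2 Stat2 was at -0.0917 and Jak1 at -0.10. In DESeq2 with the replicate block without pair 3 Stat6 was at 0.0738. With RLE scaling Stat2 was at -0.0093 and Jak1 at -0.0061. In edgeR with the replicate block Stat2 was at -0.0306. In edgeR with the replicate block without pair 1 Stat2 was at -0.10 and Stat3 at -0.22. In edgeR with the replicate block without pair 2 Stat2 was at -0.0725, Stat6 at 0.0010 and Jak1 at -0.0773. In edgeR with the replicate block without pair 3 Stat6 was at 0.0659. In limma-voom Stat2 was at -0.0312. In limma-voom with the replicate block Stat2 was at -0.0317. The transcript Stat5b-001 was at 0.0237 in edgeR with the replicate block. As shares of counts, the difference in percentage points was 0.0299 for Stat3-001 and -0.10 for Stat6-005. Pool shares from CPM differed by 0.0796 points for Stat2 and 0.38 points for Stat6. Pool shares over protein-coding transcripts differed by 0.0651 points for Stat2 and 0.52 points for Stat6. Over fits that left out 1 library or 1 pair, log2 changes of genes ran as follows: Stat2 -0.23 to 0.21, Stat3 -0.25 to 0.30, Stat4 -0.0757 to 0.56, Jak1 -0.17 to 0.11 and Stat6 -0.14 to 0.0750. Those of transcripts were Jak1-001 -0.15 to 0.12, Stat3-001 -0.10 to 0.30, Stat4-202 -0.0478 to 0.62, Stat5b-001 -0.30 to 0.23 and Stat6-001 -0.0671 to 0.12. Likewise, Stat6-005 -0.23 to 0.36, Stat2-202 -0.0571 to 0.31, Stat2-201 -0.37 to 0.20, Jak3-001 -0.94 to 0.12 and Jak2-202 -0.58 to 0.0584. Likewise, Stat5b-002 -1.23 to 0.36. Differences of transcript shares, in points, were Jak2-201 -3.83 to 2.83, Jak2-202 -2.83 to 3.83, Jak3-001 -2.56 to 2.17, Stat3-001 -3.54 to 0.67 and Stat4-202 -0.14 to 2.45. Likewise, Stat5a-002 -0.27 to 5.49, Stat5a-201 -5.13 to 2.18, Stat5a-001 -3.04 to 0.34, Stat5b-001 -9.39 to 18.60 and Stat5b-002 -18.88 to 8.03. Likewise, Stat6-001 -0.42 to 6.69 and Stat6-005 -4.01 to 6.80. Differences of pool shares, in points, were Stat2 -0.89 to 0.70, Stat6 -2.30 to 0.56 and Jak2 -3.12 to 0.12. Of all values recomputed, 487 kept their direction and their side of the threshold and 92 changed sign. Stat5a, Stat5b, Jak2 and Jak3 stayed lower in KO at the gene level in every setting run.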
